A study of Mus musculus with 28 samples.

Results

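Imprinted genes are expressed mainly from 1 parental allele, and 47 such genes of the mouse were followed through germ cell development and in pluripotent and germline stem cells. The list holds 24 genes expressed from the maternal copy, 22 from the paternal copy and Gnas, whose transcripts differ in their parental origin. Each gene was looked up on the array through the RefSeq accession of its probes, and where a gene had several probes the brightest was used. A probe was found for 35 of the 47 genes, 18 maternally expressed, 16 paternally expressed and Gnas, out of 38727 features (probe targets, 13023 of them with a gene symbol). The other 12 genes (H19, Igf2, Igf2r, Slc22a18, Osbpl5, Meg3, Rtl1, Peg10, Sgce, Magel2, Ube3a and Sfmbt2) had no probe by this match and are not analysed here.

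The series set primordial germ cells (PGC), from which eggs and sperm descend, beside later germ cells and stem cell lines on 28 single-colour arrays, 2 for each of 14 groups. Male and female PGC came from embryos at embryonic day 10.5 (E10.5), 13.5 (E13.5) or 17.5 (E17.5) of a BDF1 x TgN(deGFP)18Imeg cross, which carries a GFP transgene. Spermatogonia and oogonia, male and female germ cells of unstated age, came from BDF1 x Tg(Mvh-Venus)1Rbrc animals, which carry a fluorescent transgene named for the germ cell gene Mvh. Male and female embryonic germ (EG) cells, pluripotent cells whose labels name a 12.5-day PGC source, were Rb(X.2)2Ad X 129/Sv. The male embryonic stem (ES) line TMA5 was an F1 of TgN (deGFP)20Imeg and MSM/Ms, and the female ES line no5 was 129/Sv, so that sex, line and strain cannot be told apart in ES cells. Germline stem (GS) cells, cultured from the male germline, were DBA/2, and whole adult testis was C57BL/6J. The labels name no other allele or agent, and each ES group is 1 line. They give no sorting step and no feeder cells. They also do not state that paired arrays hold RNA of different animals or cultures, so p-values speak only of the spread within these pairs of arrays, which could be technical.

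Imprinted expression rests on DNA methylation that is placed differently in sperm and egg and is kept in the body. PGC erase these marks as they migrate to and settle in the gonad, and set them anew according to the sex of the embryo, in the male germline before birth and in the female germline in growing oocytes after birth. Many maternally expressed members act to limit growth (Cdkn1c, Phlda2, Grb10), while several paternally expressed ones favour growth of the fetus or placenta (Mest, Peg3, Dlk1). Some members are imprinted in the placenta or the brain alone. The arrays measure the RNA of both alleles together and do not show from which parent it came.

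A level here is log2 processed signal minus the array's 75th percentile over 7227 probes measured on every array, so 0 is that percentile and levels are compared within a gene only. A probe counts as measured where the scanner software marked it well above background. Of the 35 genes, 32 were measured on both arrays of at least 1 group and 11 on all 28 arrays, whereas Zim1, Slc22a3 and Gnas were measured on no array. Between 17.8% and 76.8% of all probes were well above background per array, with under 50% on 16 arrays, and no spot was saturated. All 7 germ cell markers (Ddx4, Dazl, Dppa3 and others) were measured on both arrays of every group except E10.5 male PGC and testis, which each had 6. In bulk samples such as these, fewer cells of a type and less RNA per cell cannot be told apart. A change was called at an adjusted p under 0.05 in limma (1 fit over all 28 arrays, Benjamini-Hochberg over all features tested), and each ± after a log2 difference is its standard error. Where a gene was measured on no array of 1 side, the bright side is set against the higher of the dim signal and the array's detection floor and the result is written as "at least N-fold". Such a bound holds for this processing only and can be smaller under another.

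**Figure D1:**
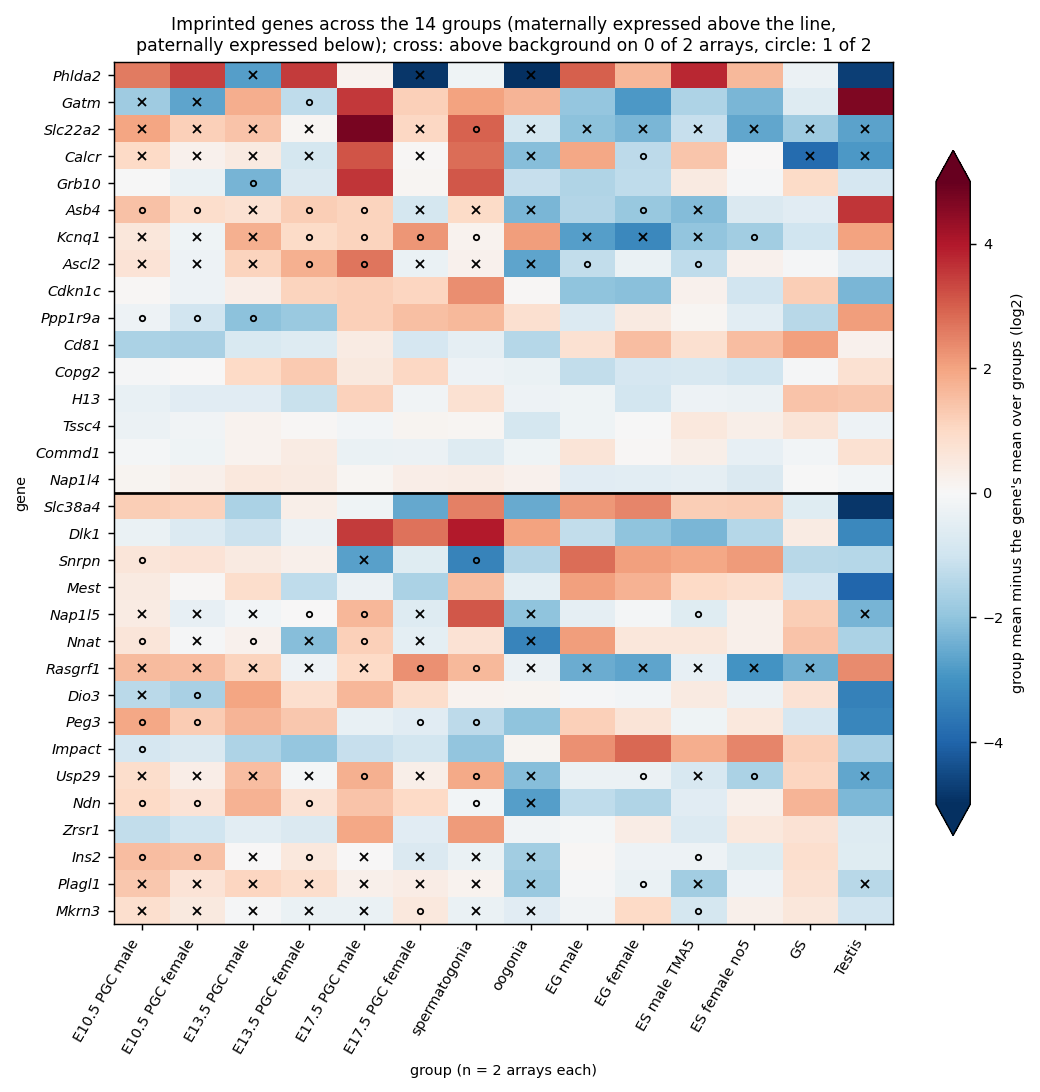
Mean level of the 32 measured imprinted genes in the 14 groups (columns, 2 arrays each), as the difference from the gene's own mean over groups (log2, colour clipped at 5 above or below). Genes run from the largest range of group means to the smallest within the maternally (above the line) and paternally expressed class. A cross marks a group in which the gene was measured on 0 of 2 arrays and a circle 1 of 2. Phlda2 carries a cross in 3 groups, and Nap1l4, Commd1 and Tssc4 hardly change colour.

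The spread across groups differed widely between members. Between the highest and the lowest of the 14 group means, Gatm ranged over 7.56 log2 units, Slc38a4 over 7.37 and Dlk1 over 7.19, with measured values at both ends. The lowest group means of Phlda2, Slc22a2 and Calcr were not well above background, so their full ranges were not measured, and the Slc22a2 and Calcr probes used were measured on only 3 and 11 arrays. Nap1l4, a histone chaperone gene of the Kcnq1 region, ranged over 1.24 units, Commd1, a copper metabolism gene, over 1.44 and Tssc4 over 1.55, and these 3 were measured on all 28 arrays. Slc38a4 and Dlk1 were also measured on every array. The narrow range of Nap1l4 is that of its brightest probe. Its other 2 probes, measured on 23 and 27 arrays, correlated with that probe over the arrays at only 0.014 and 0.127.

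**Figure D2:**
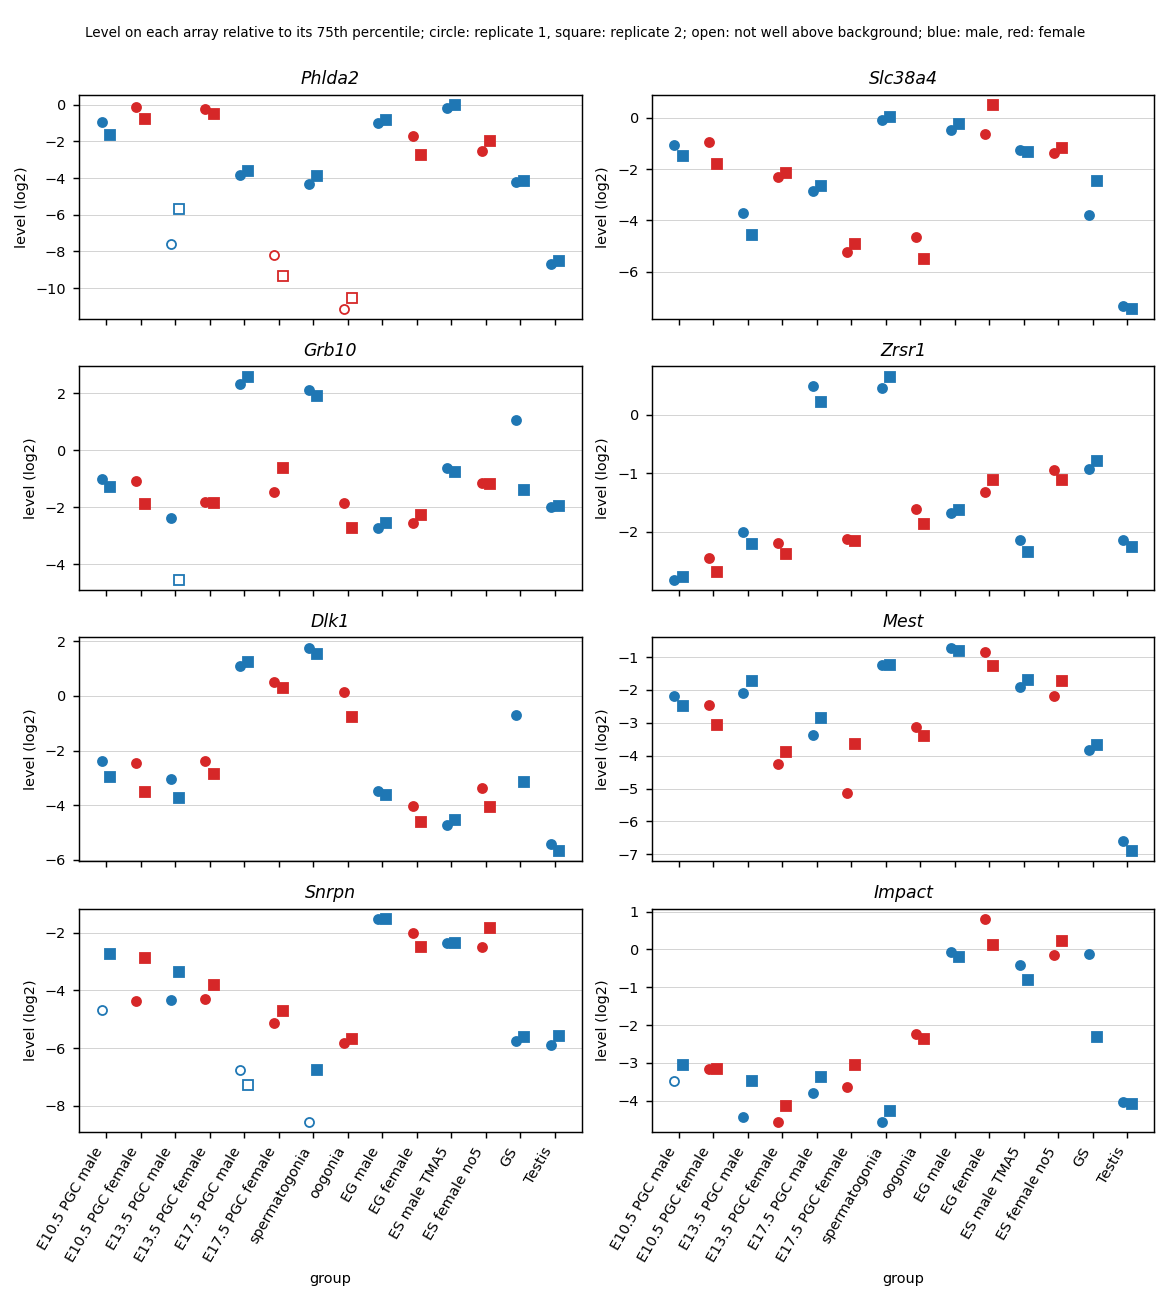
Level of 8 imprinted genes on each array (log2, relative to the array's 75th percentile) in the 14 groups. Circles are replicate 1 and squares replicate 2, blue is male and red is female, and open symbols are not well above background. Phlda2 is open in E13.5 males, E17.5 females and oogonia, Grb10 and Zrsr1 stand highest in E17.5 males and spermatogonia, and Impact stands high in EG and ES cells and on 1 of the 2 GS arrays.

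The interval in which PGC settle in the gonad was addressed by setting E13.5 against E10.5 over both sexes. Of 20 members tested 10 changed (50%), 6 higher and 4 lower, beside 31.8% of all features (21.8% higher, 9.96% lower), and the members' median difference was 0.10 against 0.24 over all features. Dio3, which inactivates thyroid hormone, had -4.04 and -2.76 in E13.5 males and -4.50 and -4.54 in E13.5 females. At E10.5 it had -5.83 and -7.61 in males and -7.20 and -6.75 in females, with only replicate 2 of the females measured. All 4 E13.5 values lay above all 4 at E10.5, and Dio3 rose by 2.89 ± 0.42 (limma adjusted p = 8.84e-05). This estimate rests on mostly dim values at E10.5. Under other processing it was as small as 0.38, and the call was lost after normexp background correction and in a fit on these groups alone. Copg2, a subunit of the coat of Golgi transport vesicles, rose by 1.17 ± 0.27 (limma adjusted p = 0.00366). Its call was lost after normexp correction, in the deposited values and in a fit on these groups alone, and the rise was as small as 0.635.

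Slc38a4, an amino acid transporter of the cell surface, fell over the same interval. It had -3.69 and -4.56 in E13.5 males and -2.31 and -2.14 in E13.5 females, against -1.07 and -1.50 in E10.5 males and -0.94 and -1.81 in E10.5 females. The 4 later values lay below all 4 earlier ones (difference -1.85 ± 0.33, limma adjusted p = 0.000563). The Slc38a4 call was lost in the deposited values and in a fit on these groups alone. Phlda2 also fell on average (-2.65 ± 0.38). The E13.5 males, given below with the females, were not well above background, while the E13.5 females lay within the range of the E10.5 values, which were -0.92 and -1.63 in males and -0.14 and -0.77 in females. Smaller calls were made for Gatm, Cd81, Zrsr1 and Commd1 (higher) and Ppp1r9a and Grb10 (lower), and each of these 6 lost its call on leaving out any of 3 to 7 of the 8 arrays. Without 1 array Cd81 was 0.86 to 0.95, Zrsr1 0.43 to 0.55 and Commd1 0.39 to 0.50. Grb10 fell by 0.79 and Ppp1r9a by 0.88 without E13.5 male replicate 2. Gatm, measured on no E10.5 array, was at least 1.15-fold higher and lost its call without E10.5 female replicate 2, E10.5 male replicate 2 or E13.5 male replicate 1. Among markers of the supporting cells of the gonad (Sertoli and pregranulosa cells), 4 of 9 tested were higher at E13.5 and 0 lower. Their summed level was -0.06 to 1.05 in E13.5 males and -2.25 to -2.19 in E13.5 females, against -2.90 to -1.74 at E10.5. Of the 7 germ cell markers 4 were higher and 0 lower, and the part of either list in these changes was not tested. The balance of calls moved with the scaling: 3 higher and 6 lower when the percentile was taken over all probes and 0 higher and 2 lower after normexp background correction.

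From E13.5 to E17.5, when male germ cells are arrested and female ones are in meiosis, male PGC changed 12 of 22 tested members, 10 higher and 2 lower (54.5%, beside 41.8% of all features, 29.5% higher and 12.3% lower). Female PGC changed 6 of 20, 3 higher and 3 lower (30%, beside 32.6%, 18.1% higher and 14.5% lower). The members' median difference was 1.02 in males, against 0.50 over all features, and 0.00 in females, against 0.11. All 7 maternally expressed members that changed in males were higher, and of the paternally expressed ones 3 were higher and 2 lower. In females 2 maternally expressed members were higher and 2 lower, and 1 paternally expressed member moved each way. The male split was 7 higher and 5 lower with the percentile over all probes, 10 and 4 after quantile normalization and 4 and 0 after normexp correction.

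Dlk1, a membrane protein related to Notch ligands, rose in both sexes. Dlk1 had 1.08 and 1.24 in E17.5 males, against -3.06 and -3.74 in E13.5 males, a rise of 4.56 ± 0.60 (limma adjusted p = 3.23e-05). In E17.5 females it had 0.51 and 0.30, against -2.39 and -2.88 in E13.5 females (rise of 3.03 ± 0.60, limma adjusted p = 0.00119). No value at E17.5 came near the values at E13.5 in either sex. Ppp1r9a, the neuronal actin regulator neurabin, was measured on 1 of 2 E13.5 male arrays and on all others of these groups, and was called higher in males (3.21 ± 0.58) and females (3.34 ± 0.58). Both Ppp1r9a calls were lost under the mean of its probes, with 0.69 in males (limma adjusted p = 0.428) and 1.79 in females (limma adjusted p = 0.052), and the male call also after normexp correction (1.16) and in a fit on these groups alone. H13, a peptidase that cuts signal peptides, rose by 1.72 ± 0.34 in males and 0.94 ± 0.34 in females. The H13 call in females was lost without any 1 of the 4 arrays (0.89 to 0.99).

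Another 5 members were called in males. The surface protein Cd81 rose by 1.17 ± 0.39, a call lost without any 1 of the 4 arrays (1.07 to 1.27). Calcr was called higher, but its probe was measured on neither E13.5 male array (-5.86 and -4.92 in E17.5 males, against -8.98 and -7.19 in E13.5 males), so no exact rise is given, and the call was lost without E13.5 replicate 1 or either E17.5 array. Slc22a2 was at least 2.08-fold higher, lost without E13.5 replicate 1 or E17.5 replicate 2. Mest was lower (-1.19 ± 0.40), lost without E13.5 replicate 2 (-1.01) or E17.5 replicate 1 (-0.93). Snrpn, described with the sexes at E17.5, was the other gene that fell.

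**Figure D3:**
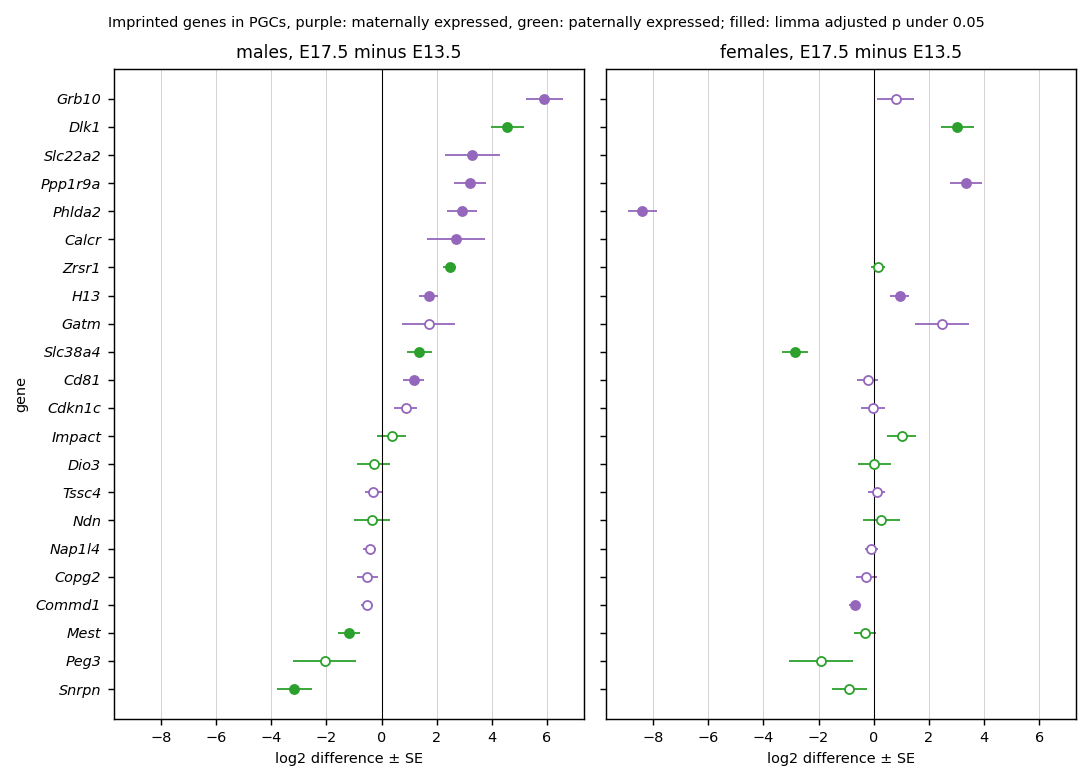
Difference between E17.5 and E13.5 PGC for each imprinted gene tested (log2, ± SE, 2 arrays against 2), in males (left) and females (right). Purple genes are maternally and green genes paternally expressed, and filled points were called at adjusted p under 0.05. Dlk1 and Ppp1r9a lie to the right in both sexes, and Phlda2 and Slc38a4 lie on opposite sides of 0.

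For 4 members the change from E13.5 to E17.5 differed between the sexes (male change minus female change in the same fit), of 22 tested (18.2%, all with a more positive change in males, beside 26.2% of all features, 16.3% more positive and 9.86% less). Phlda2, a pleckstrin homology protein that limits growth of the placenta, moved in opposite directions. It had -3.82 and -3.63 in E17.5 males, against -7.59 and -5.69 in E13.5 males, where neither array was well above background. It had -8.18 and -9.36 in E17.5 females, not well above background, against -0.24 and -0.52 in E13.5 females. Phlda2 was thus measured in females at E13.5 and in males at E17.5, and in neither of the other 2 groups. The rise in males was at least 4.46-fold (limma adjusted p = 0.000558) and the fall in females at least 66.7-fold (limma adjusted p = 3.33e-08). Under other processing the fitted male rise was as small as 0.97 (log2). Its call was lost after normexp background correction and in a fit on these groups alone. The fitted fall in females was as small as -4.14 and stayed called under each alternative. The fitted difference between the changes, 11.30 ± 0.76 (limma adjusted p = 1.63e-07), rests on dim values in 2 of the 4 groups.

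Slc38a4 was measured in all 4 of these groups and moved in opposite directions as well. It had -2.85 and -2.66 in E17.5 males, against -3.69 and -4.56 in E13.5 males (1.37 ± 0.47), and -5.23 and -4.92 in E17.5 females, against -2.31 and -2.14 in E13.5 females (-2.85 ± 0.47). The changes differed by 4.22 ± 0.66 (limma adjusted p = 0.000262), and it was called under each of the 19 alternatives run for it (2.40 to 4.66). The rise in males alone was lost without E13.5 male replicate 2 (0.94) and without either E17.5 male array (1.47 without replicate 1, 1.28 without replicate 2). Slc38a4 was thus at its lowest PGC level in E17.5 females.

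Grb10, an adaptor that dampens insulin and growth factor signalling, and Zrsr1, a splicing factor retrogene that lies within Commd1, rose in males. Grb10 had 2.31 and 2.58 in E17.5 males, against -2.36 and -4.54 in E13.5 males, where replicate 2 was not well above background (5.90 ± 0.67, limma adjusted p = 9.76e-06). Female PGC had -1.48 and -0.62 at E17.5, against -1.82 and -1.86 at E13.5 (0.79 ± 0.67, not called). The changes differed by 5.11 ± 0.95 (limma adjusted p = 0.00103), and a second Grb10 probe gave 5.72 for the male rise.

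Zrsr1 showed the tightest values of the 4 genes. It had 0.49 and 0.23 in E17.5 males, against -2.0 and -2.21 in E13.5 males (2.46 ± 0.24, limma adjusted p = 2.28e-06). It had -2.12 and -2.15 in E17.5 females, against -2.19 and -2.38 in E13.5 females (0.15 ± 0.24). The changes differed by 2.31 ± 0.34 (limma adjusted p = 0.000146). Commd1, its host gene, had -0.53 ± 0.23 in males (not called) and -0.69 ± 0.23 in females, a call lost without any 1 array.

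Summed levels of markers of gonadal somatic cells were higher at E17.5 than at E13.5 in both sexes. Summed over 12 markers of Sertoli and pregranulosa cells the level was 2.09 to 3.09 in E17.5 males and -1.99 to -1.15 in E17.5 females, and -0.06 to 1.05 in E13.5 males and -2.25 to -2.19 in E13.5 females. In E17.5 males 10 of the 12 were measured on both arrays, and Sox9, which directs Sertoli cell fate, stood at -0.91 and -1.42. In E17.5 females 4 of the 12 were measured on both arrays, and Foxl2 was measured on no array of E13.5 or E17.5 females. The list joins markers of testis and ovary, and its linear sum follows the brightest. Between the sexes the sums therefore do not compare amounts of supporting cell RNA. Summed over 10 markers of mesenchyme and fibroblasts the level was 0.71 to 1.04 in E17.5 males, -1.02 to 0.29 in E17.5 females, -1.48 to -1.27 in E13.5 males and -2.01 to -1.74 in E13.5 females. Blood markers were also higher at E17.5, at 0.22 to 1.94 in males and 1.49 to 4.07 in females, against -2.07 to -0.28 and -5.86 to -1.21 at E13.5. The 3 Leydig cell markers with a probe summed to -3.39 to -3.20 in E17.5 males and -5.37 to -4.21 in E17.5 females, and 4 endothelial markers to -3.41 to -3.24 and -5.26 to -4.29. Pluripotency markers summed to 1.99 to 2.95 in E17.5 males and -2.72 to -1.88 in E17.5 females. Their part in the changes of Grb10, Zrsr1, Dlk1 and the other members was not tested.

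**Figure D4:**
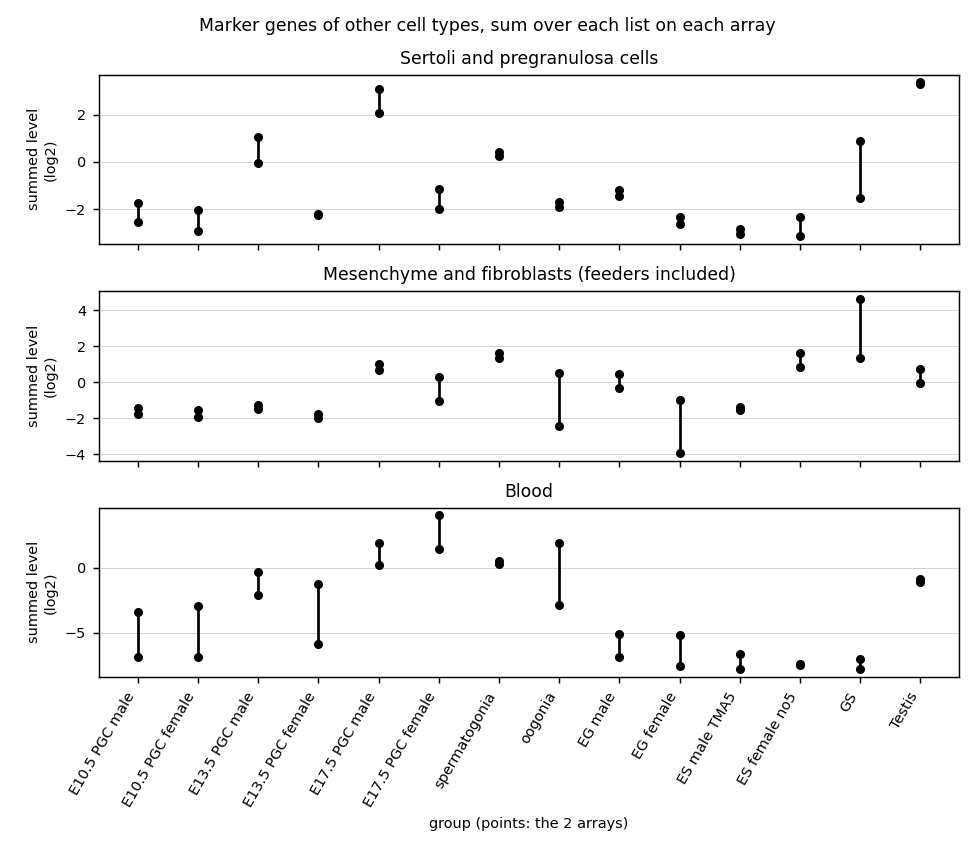
Summed level (log2 of the sum of linear levels) of marker genes of Sertoli and pregranulosa cells, of mesenchyme and fibroblasts and of blood on the 2 arrays of each group. The 2 E17.5 male PGC arrays lie between 2.09 and 3.09 for the Sertoli list, above all arrays except those of testis, and the 2 GS arrays lie apart for mesenchyme at 4.65 and 1.33.

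The upstream sequences of 3 of these genes are shown because they differ in how many CG pairs, the targets of DNA methylation, they hold. They are the 250 bases before the annotated start of transcription in RefSeq (GRCm38.p6), read 5′ to 3′ on the strand of the gene, with each CG in capitals. Phlda2 on the minus strand at chr7:143502525-143502774 holds 21 CG, Zrsr1 on the plus strand at chr11:22971755-22972004 holds 8, and the 2 annotated starts of Grb10 on the minus strand at chr11:12027972-12028221 and chr11:12037421-12037670 hold 8 and 40.
Phlda2: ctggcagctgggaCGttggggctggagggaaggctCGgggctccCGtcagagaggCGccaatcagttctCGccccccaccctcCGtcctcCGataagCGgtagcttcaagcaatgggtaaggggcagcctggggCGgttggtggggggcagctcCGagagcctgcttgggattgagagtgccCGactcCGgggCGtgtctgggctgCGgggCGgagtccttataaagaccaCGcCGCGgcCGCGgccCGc
Zrsr1: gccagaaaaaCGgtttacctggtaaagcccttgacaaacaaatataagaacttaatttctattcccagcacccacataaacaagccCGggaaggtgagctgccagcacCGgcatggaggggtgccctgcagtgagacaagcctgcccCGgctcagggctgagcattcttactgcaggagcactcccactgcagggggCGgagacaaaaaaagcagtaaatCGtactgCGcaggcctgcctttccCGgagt
Grb10 start with few CG: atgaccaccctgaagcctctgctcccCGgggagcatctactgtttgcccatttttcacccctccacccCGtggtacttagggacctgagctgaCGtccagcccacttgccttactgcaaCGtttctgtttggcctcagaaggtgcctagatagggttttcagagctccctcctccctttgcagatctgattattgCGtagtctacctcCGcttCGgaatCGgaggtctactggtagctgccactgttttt
Grb10 start with many CG: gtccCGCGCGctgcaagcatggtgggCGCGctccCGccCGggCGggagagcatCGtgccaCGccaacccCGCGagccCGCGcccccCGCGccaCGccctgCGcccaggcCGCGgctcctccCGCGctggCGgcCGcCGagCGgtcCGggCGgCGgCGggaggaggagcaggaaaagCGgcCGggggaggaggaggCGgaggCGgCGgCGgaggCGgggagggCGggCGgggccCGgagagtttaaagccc

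RefSeq gave 45 such windows (250 bases before to 50 after the start) for 30 of the 35 members. Their median count of CG was 17, against 7 over 32851 windows of the same length from all genes. It was 20.5 in 20 windows of 15 maternally expressed members and 11 in 21 windows of 14 paternally expressed ones. Windows were counted per annotated start, so a gene with several starts counts several times. Snrpn gave 4 of the paternal windows (7, 4, 3 and 2 CG) and Slc38a4 gave 3. No maternally expressed member with a probe gave more than 2. A median with 1 value per gene was not taken. The 6-base sequence TGCCGC, which is the core of the motif bound by the imprint-keeping factor ZFP57 and itself holds a CG, was present on either strand in 12 of the 45 windows (26.7%) and in 11.6% of all windows. None of the 250-base sequences shown above holds it. The full 300-base window of the Grb10 start with many CG holds it once and is among the 12. Also among the 12 are 2 Mest windows that nearly coincide (from 30737800 and from 30737803 on chromosome 6). Slc38a4 had 3 annotated starts with 5 CG each.

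The sexes were compared at each stage. At E10.5, male against female, limma called 0 of 15 tested members, beside 0.0114% of all features. At an unadjusted p under 0.05 in limma these were 0 of 15 members and 117 of 8741 features. At E13.5 4 of 20 were called, 2 higher and 2 lower in males, beside 12.2% of all features, 4.43% higher and 7.74% lower (deposited values gave 0 higher and 3 lower). Phlda2 was at least 45.4-fold lower in E13.5 males (limma adjusted p = 6.64e-06). Male minus female signal was -7.35 on the replicate 1 arrays and -5.17 on the replicate 2 arrays, with the male signals dim. The call was lost in a fit on these groups alone, and under other processing the fitted difference was as small as -3.64. Slc38a4 was lower in males (-1.90 ± 0.47), with a call lost without either female array or male replicate 2.

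Mest and Gatm were higher in E13.5 males. Mest, a hydrolase-like protein linked to fetal growth, had -2.10 and -1.74 in E13.5 males, against -4.25 and -3.90 in E13.5 females (2.16 ± 0.40, limma adjusted p = 0.00238). The difference was 2.16 on each scan day. Gatm, which makes the precursor of creatine, had -3.28 and -4.84 in E13.5 males, against -7.54 and -6.77 in E13.5 females, of which only the second was measured. Its call (3.09 ± 0.97) was lost without any 1 of the 4 arrays.

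Of 22 members tested between the sexes at E17.5, 10 were called, 9 higher and 1 lower in males (45.5%, beside 49.4% of all features, 29.4% higher and 20% lower). The members' median difference was 0.78, against 0.27 over all features. All 6 maternally expressed members called were higher in males, and 3 of the 4 paternally expressed ones. Phlda2 was at least 6.56-fold higher, Grb10 higher by 3.50 ± 0.67, Zrsr1 by 2.49 ± 0.24, Slc38a4 by 2.32 ± 0.47 and H13 by 1.34 ± 0.34 (limma adjusted p between 1.01e-06 and 0.00436). These 5 were called on leaving out any 1 array. The Cd81 call (1.25 ± 0.39) was lost without female replicate 1 or either male array (0.84 to 1.30). The Mest call (1.29 ± 0.40) was lost without female replicate 1 (0.55) or male replicate 2 (1.03), and the difference was 2.03 without female replicate 2.

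Slc22a2 and Calcr were measured on both E17.5 male arrays. Slc22a2, an organic cation transporter, had -5.06 and -4.60 in E17.5 males, against -8.01 and -9.07 in E17.5 females. It was not well above background in females or in any other group, apart from spermatogonia replicate 2 (-6.82). The difference was at least 3.05-fold (limma adjusted p = 0.00605), not called without female replicate 2. Calcr, the calcitonin receptor, had -5.86 and -4.92 in E17.5 males, against -7.97 and -9.02 in E17.5 females, not well above background (at least 2.07-fold, limma adjusted p = 0.0215, not called without replicate 2 of either sex).

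Snrpn was the 1 member lower in E17.5 males. Snrpn, a protein of the splicing machinery from the Prader-Willi region, had -6.75 and -7.26 in E17.5 males, neither well above background, against -5.12 and -4.72 in E17.5 females (at least 2.8-fold lower, limma adjusted p = 0.0131, not called without replicate 2 of either sex). Against E13.5 males, with -4.33 and -3.36, it was at least 5.9-fold lower (limma adjusted p = 0.0011). Ascl2, a transcription factor of the placenta, read -8.03 and -2.41 in E17.5 males, where only replicate 2 was measured, and was not called (3.0 ± 1.36).

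Oogonia and spermatogonia were set against E17.5 PGC of their sex. They came from another transgenic cross than the PGC, and each group lay on a slide of its own. Cell type, cross and slide therefore cannot be told apart here. Against E17.5 female PGC, oogonia changed 3 of 20 members, all lower (15%, beside 14.9% of all features, 4.53% higher and 10.4% lower). Ndn, the MAGE family protein necdin, was at least 9.26-fold lower in oogonia (limma adjusted p = 0.0027), and this call held without any 1 array. The call for Copg2 (-1.35 ± 0.38) was lost without either oogonia array or E17.5 female replicate 2 (-1.64 to -1.06), and that for Tssc4 (-1.05 ± 0.31) without any 1 array (-1.27 to -0.83). With the percentile over all probes the split was 3 higher and 1 lower, and quantile normalization gave 1 of each. Against E17.5 male PGC, spermatogonia changed 2 of 23 members, both higher (8.7%, beside 11.9%, 5.11% higher and 6.81% lower), with a split of 3 higher and 1 lower after quantile normalization. Slc38a4 had -0.07 and 0.02 in spermatogonia, against -2.85 and -2.66 in E17.5 male PGC (2.73 ± 0.47, limma adjusted p = 0.00283). Mest had -1.24 and -1.25 in spermatogonia, against -3.36 and -2.85 in E17.5 male PGC (1.86 ± 0.40), and lost its call without E17.5 male replicate 1 or either spermatogonia array (1.61 to 1.87). Of 10 Sertoli and pregranulosa markers tested 6 were lower in spermatogonia and 0 higher, with sums of 0.27 to 0.44 in spermatogonia, against 2.09 to 3.09 in E17.5 males, and their part was not tested. With slide as a random block 0 members were called in both comparisons.

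Set against oogonia, spermatogonia differed in 14 of 23 members, 12 higher and 2 lower (60.9%, beside 46.8% of all features, 30.7% higher and 16% lower), with a median of 1.00 against 0.32 over all features. Slc38a4 (-0.07 and 0.02 in spermatogonia, against -4.64 and -5.49 in oogonia) and Zrsr1 (0.46 and 0.66 against -1.61 and -1.87 in oogonia) were higher by 5.04 ± 0.47 and 2.30 ± 0.24. Grb10 had 2.10 and 1.89 in spermatogonia, against -1.84 and -2.73 in oogonia (4.28 ± 0.67). The cell cycle inhibitor Cdkn1c had 1.18 and 1.08 in spermatogonia, against -1.21 and -1.05 in oogonia (2.26 ± 0.42). For these 4 genes the limma adjusted p lay between 5.05e-07 and 0.000367.

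Another 4 members were measured in spermatogonia and on neither oogonia array. Phlda2 had -4.33 and -3.87 in spermatogonia, against -11.12 and -10.53 in oogonia (at least 21.3-fold higher). Nap1l5, a nucleosome assembly protein-like gene, had -5.06 and -4.88 in spermatogonia, against -9.69 and -10.48 in oogonia (at least 11.6-fold). Calcr (-5.47 and -6.03 in spermatogonia) and Nnat, a small membrane protein of neurons (-6.03 and -6.23 in spermatogonia), were higher by at least 6.77-fold and 5.22-fold. The adjusted p of these 4 in limma lay between 1.25e-07 and 0.00105.

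Impact and Snrpn were the 2 members lower in spermatogonia. Impact, which restrains the amino acid sensor GCN2, had -4.56 and -4.26 in spermatogonia, against -2.23 and -2.36 in oogonia (-2.11 ± 0.53, limma adjusted p = 0.00354). Snrpn was also lower (-1.90 ± 0.64, or -0.99 without spermatogonia replicate 1, which was not well above background) and read higher after normexp correction (0.40). The Snrpn call was also lost without either oogonia array. Calls for Tssc4 (1.00 ± 0.31), H13 (1.01 ± 0.34) and Dlk1 (1.97 ± 0.60) were lost without spermatogonia replicate 1, among others, at 0.98, 1.05 and 1.86. Tssc4 and H13 turned negative in the deposited values (-0.21 and -0.20). The mesenchyme list summed to 1.38 to 1.65 in spermatogonia and -2.41 to 0.53 in oogonia, and the Sertoli list to 0.27 to 0.44 and -1.92 to -1.71. Each group lay on 1 slide of its own, so slide and group cannot be told apart. A random slide block called 7 members, and other scalings gave 9 higher and 4 lower (percentile over all probes), 6 and 3 (deposited values) and 10 and 0 (normexp).

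EG cells, which arise when PGC are brought into culture, were set against E13.5 PGC of both sexes (4 arrays against 4). Of 29 members tested 16 changed, 9 higher and 7 lower (55.2%, beside 40.3% of all features, 17.2% higher and 23.1% lower), and the median was -0.22 against -0.19. Of the paternally expressed members 6 were higher and 2 lower, and of the maternally expressed ones 3 were higher and 5 lower. Each of the 16 calls held on leaving out any 1 array, while a random slide block called 6. EG cells also differ from PGC in strain, culture and slide, and their mesenchyme list summed to -3.92 to 0.48, against -2.01 to -1.27 in E13.5 PGC. Of 9 Sertoli and pregranulosa markers tested 6 were lower in EG cells and 0 higher, with sums of -2.64 to -1.20 in EG cells, against -2.25 to 1.05 in E13.5 PGC. Of the 7 germ cell markers 6 were lower and 0 higher, with a median difference of -4.95. The part of these lists in the members' differences was not tested. The split was 12 higher and 5 lower after quantile normalization, 10 and 5 in the deposited values and 7 and 16 after normexp correction.

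**Figure D5:**
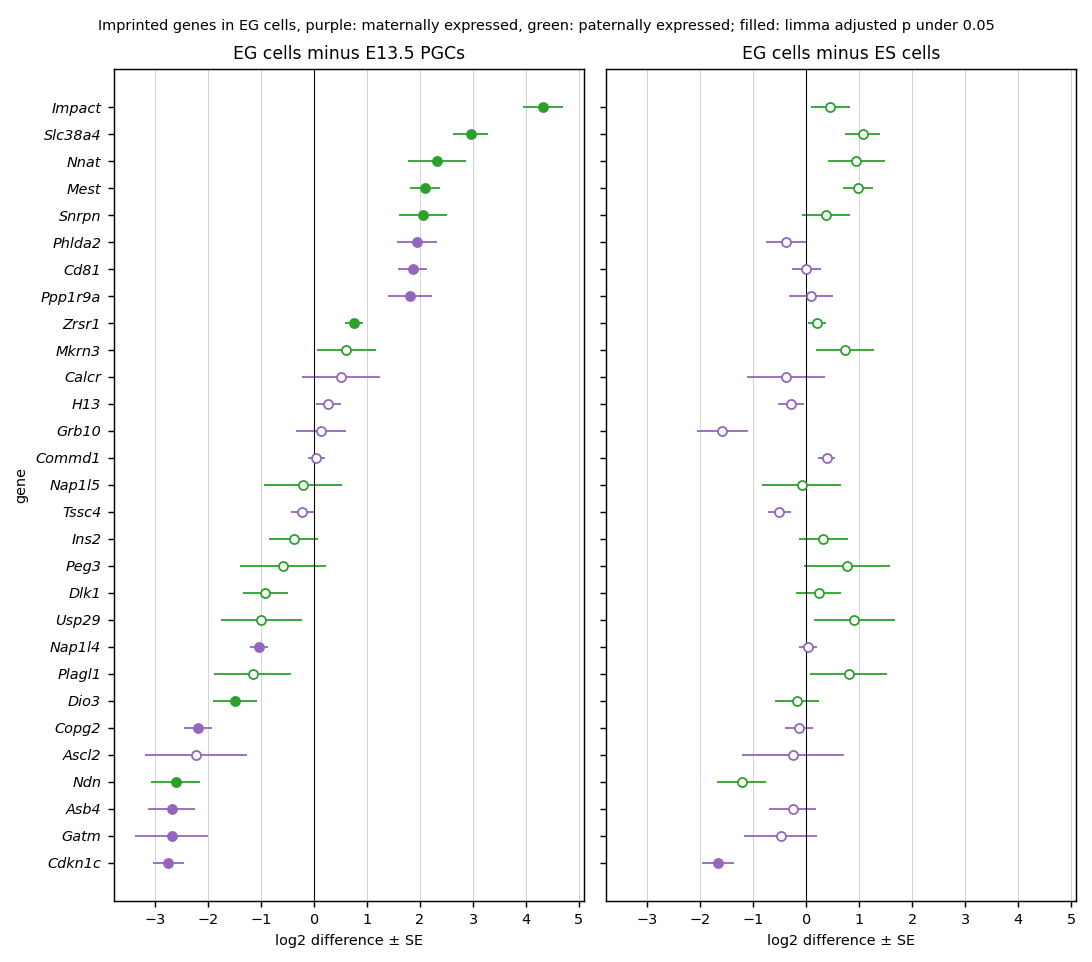
Difference of EG cells from E13.5 PGC (left) and from ES cells (right) for each imprinted gene tested (log2, ± SE, 4 arrays against 4). Purple genes are maternally and green genes paternally expressed, and filled points were called at adjusted p under 0.05. Impact lies farthest to the right against PGC, and Cdkn1c is the 1 filled point against ES cells.

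Impact stood far above its PGC level in EG cells. It had -0.06 and -0.20 in male and 0.81 and 0.12 in female EG cells, against -4.43 and -3.48 in male and -4.56 and -4.15 in female E13.5 PGC. No EG value lay within 3 units of a PGC value, and the difference was 4.32 ± 0.37 (limma adjusted p = 2.25e-07). ES cells had -0.41 and -0.80 in the male and -0.15 and 0.22 in the female line, and the EG difference from them was 0.45 ± 0.37 (not called).

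Other paternally expressed genes were also higher in EG cells. Slc38a4 had -0.49 and -0.24 in male and -0.65 and 0.48 in female EG cells, above all 4 E13.5 PGC values (2.95 ± 0.33). Mest had -0.71 and -0.82 in male and -0.85 and -1.27 in female EG cells (2.09 ± 0.28). Snrpn had -1.52 and -1.51 in male and -2.02 and -2.48 in female EG cells (2.06 ± 0.45). For these 3 genes the limma adjusted p lay between 3.5e-06 and 0.0016. Zrsr1 rose by 0.76 ± 0.17, and Nnat, measured on 1 of the 4 PGC arrays, was called higher (2.32 ± 0.54) but read lower after normexp correction (-0.88).

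Genes lower in EG cells included Cdkn1c, Copg2 and Ndn. Cdkn1c had -3.24 and -3.13 in male and -2.83 and -3.67 in female EG cells, against -0.95 and -0.78 in male and -0.09 and -0.05 in female E13.5 PGC (-2.75 ± 0.30, limma adjusted p = 2.4e-06). Copg2 (-2.19 ± 0.27), Ndn (-2.61 ± 0.46), Dio3 (-1.50 ± 0.42) and Nap1l4 (-1.03 ± 0.17) were also lower. Gatm (-2.69 ± 0.69) was measured on all 4 EG and 3 of 4 PGC arrays. Asb4 (-2.69 ± 0.44) was measured on 3 of 4 EG and 1 of 4 PGC arrays, so its PGC level is dim. Phlda2 was called higher in EG cells (1.94 ± 0.38), where it had -0.98 and -0.85 in male and -1.73 and -2.75 in female EG cells, between the 2 sexes of E13.5 PGC. Of the other maternally expressed genes, Cd81, a surface tetraspanin, was higher in EG cells (1.86 ± 0.27). Ppp1r9a was called higher (1.81 ± 0.41), but its other measured probe gave -1.84, and the mean of its probes (-0.01) and normexp correction (-0.13) read lower.

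Against ES cells, EG cells differed in 1 of 29 members (3.4%, beside 4.93% of all features, 3.37% higher and 1.55% lower). This was Cdkn1c, with -3.24 and -3.13 in male and -2.83 and -3.67 in female EG cells, against -0.84 and -1.10 in male and -2.40 and -1.86 in female ES cells (-1.67 ± 0.30, limma adjusted p = 0.00517). All EG values lay below all ES values, and without 1 array the difference stayed between -1.88 and -1.46. Strain differs between these lines as well, EG arrays shared 1 slide and ES arrays another, and a random slide block called 0. The median difference of the members was 0.03, against 0.09 over all features. With a fit on these 4 groups alone 5 members were called.

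Within the lines, limma called 0 of 29 members between male and female EG cells, beside 0.686% of all features (0.371% higher and 0.316% lower). At an unadjusted p under 0.05 in limma these were 4 of 29 members and 2171 of 21853 features. Quantile normalization, the deposited values and a slide block each called 1 member. Male TMA5 against female no5 ES cells gave 2 of 28 (7.1%, beside 2.94%, 1.18% higher and 1.76% lower). Phlda2 had -0.20 and -0.05 in the male ES line, against -2.52 and -2.01 in the female line (2.14 ± 0.54, limma adjusted p = 0.0421). Zrsr1 had -2.14 and -2.35 in the male line, against -0.94 and -1.12 in the female line (-1.22 ± 0.24, limma adjusted p = 0.0108). Both calls were lost without any 1 of the 4 arrays (1.88 to 2.40 for Phlda2, -1.32 to -1.11 for Zrsr1).

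GS cells were set against spermatogonia and against whole testis, and both comparisons share the GS arrays. Against spermatogonia 10 of 30 members changed, 3 higher and 7 lower (33.3%, beside 23% of all features, 10.8% higher and 12.3% lower), and normexp correction gave 2 higher and 19 lower. Slc38a4 had -3.79 and -2.47 in GS cells, against -0.07 and 0.02 in spermatogonia (-3.10 ± 0.47, limma adjusted p = 0.000241). Mest had -3.82 and -3.68 in GS cells, against -1.24 and -1.25 in spermatogonia (-2.51 ± 0.40, limma adjusted p = 0.000373). Calcr was not well above background in GS cells and was at least 22.9-fold lower (limma adjusted p = 0.000322). Dlk1 (-3.58 ± 0.60), Ppp1r9a (-3.02 ± 0.58), Grb10 (-2.15 ± 0.67) and Zrsr1 (-1.42 ± 0.24) were lower as well, and Impact (3.19 ± 0.53), Cd81 (2.50 ± 0.39) and Snrpn (1.97 ± 0.64) higher. Other probes gave smaller differences, -0.52 and -0.50 for Zrsr1, -0.52 for Mest and -0.28 for Ppp1r9a. The Zrsr1 call was lost in the deposited values and in a fit on these groups alone.

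The 2 GS arrays stood apart from each other. Their correlation over 6194 features measured on every array was 0.91, the lowest of the 14 groups. GS replicate 1 read 1.08 for Grb10, -0.69 for Dlk1 and -0.11 for Impact, against -1.39, -3.17 and -2.32 for replicate 2. The mesenchyme list summed to 4.65 on replicate 1 and 1.33 on replicate 2. Against spermatogonia Grb10 lost its call without GS replicate 2 (-0.91) or either spermatogonia array and was -3.38 without GS replicate 1. Dlk1 was -2.34 without replicate 2 and Impact was 2.09 without replicate 1. Snrpn lost its call without either GS array or spermatogonia replicate 1 (1.07 without the last), and read -1.01 after normexp correction. GS cells and spermatogonia differ in strain and slide as well as in type, and a random slide block called 1 member. The Ppp1r9a call was lost under the mean of its probes (-1.65). Of 11 Sertoli and pregranulosa markers tested 4 were lower in GS cells and 0 higher, and their part was not tested.

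Against testis, which lay on the same slide, GS cells differed in 21 of 30 members, 15 higher and 6 lower (70%, beside 46.3% of all features, 19.5% higher and 26.8% lower). The median difference was 1.68, against -0.15 over all features. Of the paternally expressed members 10 were higher and 1 lower, and of the maternally expressed ones 5 each way. Slc38a4 (4.26 ± 0.47), Phlda2 (4.42 ± 0.54), Dio3 (4.10 ± 0.59), Ndn (3.94 ± 0.66), Cdkn1c (3.49 ± 0.42) and Mest (3.0 ± 0.40) were higher, and these 6 calls held without any 1 array. Phlda2 had -4.21 and -4.14 in GS cells, against -8.68 and -8.52 in testis.

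Testis itself held the lowest group mean of Slc38a4 (-7.35 and -7.44), Mest (-6.61 and -6.89), Dlk1 (-5.41 and -5.67), Dio3, Peg3 and Cdkn1c among the 14 groups. It held the highest of Gatm (-1.17 and -1.26), Asb4 (-4.14 and -4.41), Ppp1r9a, Commd1 and Rasgrf1. Gatm (-5.34 ± 0.97), Asb4 (-4.14 ± 0.63), an adaptor of ubiquitin ligases, and Ppp1r9a (-3.49 ± 0.58) were lower in GS cells, as were Kcnq1, Commd1 and Rasgrf1. The other Ppp1r9a probe gave -0.64. Rasgrf1, an exchange factor for Ras, was measured on both arrays of testis alone (at least 10.7-fold lower in GS cells, limma adjusted p = 0.00499). Its call was lost after normexp correction and after quantile normalization, and under other processing the fitted difference was as small as -1.40. Adult testis holds spermatids and somatic cells, and the Sertoli list summed to -1.51 to 0.88 in GS cells, against 3.30 to 3.37 in testis. The spermatid list summed to -6.28 to -4.28 in GS cells, against 4.69 to 4.76 in testis. Their part in these differences was not tested. Calls for Kcnq1 (-3.01 ± 0.97) and Tssc4 (0.92 ± 0.31) were lost without GS replicate 2 (-2.48 and 0.69) or either testis array, and that for Nap1l5 (at least 9.62-fold higher) without replicate 1 of either group. Without GS replicate 1 the differences of Grb10 (1.81 ± 0.67 with all arrays and 0.58, not called, without it), Cd81 (1.15), Dlk1 (2.37) and Impact (1.74) were smaller by more than 1.5 times. Without GS replicate 2 Grb10 was 3.05 and Nnat 1.94 (not called).

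Members of the same imprinted region were compared across groups. Over the 14 group means, 38 pairs of members from the same imprinted region had a median Pearson r of 0.19 (from -0.73 to 0.79), and 458 other pairs had 0.15. Most of the same-region pairs come from 1 region as grouped here, the Kcnq1 domain with its flank, Ins2 included. Both ends of the range lie in it (Cd81 and Nap1l4 at -0.73, Kcnq1 and Nap1l4 at 0.79). The median thus describes mainly that region. The group means share arrays and scaling and include dim values, so r is given as a description only. Mest and its neighbour Copg2, of opposite parental expression, had r of -0.67, and Zrsr1 and its host Commd1 -0.54. Dlk1 and Dio3, at the 2 ends of their region, had 0.48, and Peg3 and Usp29, whose annotated start windows on chromosome 7 overlap (6730370 to 6730669 and 6730333 to 6730632), had 0.43. The highest r was that of Mest and Slc38a4 (0.85), which lie on different chromosomes. The pairs H19 and Igf2, Meg3 and Dlk1, and Peg10 and Sgce could not be compared because at least 1 gene of each had no probe.

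Peg3, a zinc finger protein of maternal behaviour and growth, was measured on 24 arrays and was called in no comparison. It read -3.97 and -3.15 in E13.5 males and -4.62 and -3.23 in E13.5 females, and -7.45 and -7.12 in oogonia. Usp29, a ubiquitin protease gene, was measured on 8 arrays and was called in 1 comparison. It had -8.28 and -6.59 in GS cells, against -10.46 and -11.74 in testis, where it was not well above background (at least 6.37-fold higher). The Usp29 call was lost without GS replicate 2 or testis replicate 2, after normexp correction and after quantile normalization. Under other processing the fitted difference was as small as 1.33. Nap1l5 was measured on 13 arrays, with its highest values in spermatogonia (-5.06 and -4.88). Nnat was highest in male EG cells (-4.55 and -4.97) and GS replicate 2 (-4.38). Ins2 (14 arrays), Mkrn3 (12), Ascl2 (12) and Plagl1 (7), for insulin, a ring finger protein and a pair of transcription factors, were called in no comparison. The 14 arrays of Ins2 are those of its brightest probe, and its 2 other probes were measured on 0 and 1 arrays.

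Genes that write, read or keep imprints were followed as a list of 25 regulators, of which 15 had a probe. From E13.5 to E17.5 in males 10 of 14 tested changed, 6 higher and 4 lower, and in females 5 of 12, 4 higher and 1 lower (beside the 41.8% and 32.6% of all features given above). Dnmt3l, the cofactor of new DNA methylation, was at 3.43 and 3.46 in E17.5 males, against -4.56 and -4.33 in E13.5 males (7.89 ± 0.83). In oogonia and E17.5 females it was not well above background. Kdm1b, a histone demethylase needed for maternal imprints, rose in both sexes (4.82 ± 0.50 in males, 2.40 ± 0.50 in females), as did Dnmt3a (3.40 ± 0.38 and 1.27 ± 0.38). Dppa3, which shields maternal methylation in the zygote, fell by 5.24 in males and stood at 3.32 and 3.22 in oogonia, against 1.41 and 0.16 in E17.5 female PGC. Trim28, the corepressor recruited by ZFP57, fell in both sexes (-1.37 ± 0.32 in males, -1.26 ± 0.32 in females).

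In EG cells against E13.5 PGC 10 of 15 regulators changed, 7 higher and 3 lower (beside 40.3% of all features, 17.2% higher and 23.1% lower). Dnmt3l (8.98 ± 0.58) and Dnmt3b (4.51 ± 0.23) were higher, while Dppa3 (-3.0 ± 0.26), Kdm1b (-2.12 ± 0.35) and Dnmt1, the maintenance methyltransferase (-1.73 ± 0.35), were lower. Against ES cells limma called 0 of 15, beside 4.93% of all features. At an unadjusted p under 0.05 in limma these were 4 of 15 regulators and 4677 of 23226 features.

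A further list of 40 imprinted genes held 24 with a probe. At E17.5 6 of 12 tested differed between male and female PGC, 4 higher and 2 lower in males (50%, beside 49.4% of all features, 29.4% higher and 20% lower). Art5, an ADP-ribosyltransferase gene, had -1.01 and -1.32 in E17.5 males, against -7.84 and -6.16 in E17.5 females, of which replicate 1 was not well above background (5.83 ± 0.50, limma adjusted p = 3.14e-07). Th, the enzyme that starts catecholamine synthesis, had -5.44 and -4.79 in E17.5 males, against -2.16 and -3.33 in E17.5 females (-2.37 ± 0.56), and -0.90 and -0.98 in oogonia. Ano1, a chloride channel, rose from E13.5 to E17.5 in both sexes, at least 13.4-fold in males and by 4.33 ± 0.92 in females. In EG cells against E13.5 PGC 11 of 19 changed, 3 higher and 8 lower (beside 40.3% of all features, 17.2% higher and 23.1% lower).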

How the data were processed

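RNA of 28 samples was read on single-colour (Cy3) Agilent mouse arrays. Per the file headers, the authors scanned each array and extracted spot intensity with Agilent Feature Extraction 10.5.1.1, which subtracted background and flagged spots. The deposited value table holds log2 processed signal centred on each array's median, found here by matching it to the scanner values, and was used as an alternative only.

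From 43803 non-control probes, 514 flagged as non-uniform were removed. Levels are log2 processed intensity minus the array's 75th percentile over 7227 probes well above background on all arrays. Probes were named through their RefSeq accession (16759 matched, 13142 symbols), 27044 unmatched probes kept their own identifier, and the brightest probe stood for a gene. Groups came from the labels and were compared in limma 3.58.1 (R 4.3.3) with 14 group means and 14 residual degrees of freedom, fitted to all features at once. Each gene thus carries 1 spread for all groups, although groups differ in how close their 2 arrays lie. That correlation was 0.95 in E10.5 PGC of either sex and 0.9984 in testis, so a ± can be too small for PGC. A feature was tested if both arrays of a compared group measured it well above background, and p-values were adjusted by Benjamini-Hochberg over those features. The fit was tested on simulated data. The number of arrays, 2 a group, limits the precision.

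The members and lists were chosen with earlier results of these data known. Members past the threshold were named, and values per array were given, in the groups a result turns on, for the 12 with the largest range of group means and the pair Peg3 and Usp29. Such values for Dio3, Impact, Cdkn1c, Zrsr1 and Ascl2 were added after they were seen. Marker genes went through the same fit and their calls are counted. No test was run on a marker list as a whole or on its part in the members' changes. Alternatives were normexp background correction (offset 50), quantile normalization, the percentile over all probes, the mean of a gene's probes, the deposited values, stricter and no filters on dim probes, blocks for slide, scan day and replicate number, fits on the compared groups alone, and each array left out in turn. The normexp alternative used median spot signals because the files hold no mean signal.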

Additional observations from a re-analysis of the deposited data

Results flagged for a closer look

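The change from E13.5 to E17.5 differed between male and female PGC, by a test of the difference itself in limma, for Grb10 (5.11), Phlda2 (11.30), Slc38a4 (4.22) and Zrsr1 (2.31). These are log2 male changes minus female changes, and the levels on the arrays of these groups are given above. Grb10 and Zrsr1 rose in males and were not called in females, while Phlda2 and Slc38a4 rose in males and fell in females. The Sertoli and pregranulosa list, whose sum follows its brightest genes, summed to 2.09 to 3.09 in E17.5 males and -1.99 to -1.15 in E17.5 females. The mesenchyme list summed to 0.71 to 1.04 in E17.5 males and -1.02 to 0.29 in E17.5 females. Blood markers summed to 0.22 to 1.94 in E17.5 males and 1.49 to 4.07 in E17.5 females. The part of these lists in the differences was not tested.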

How the results depend on the processing

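Counts of imprinted genes called moved by over 1.5 times under the following alternatives, and where no value below or above shows the cause it was not tested. Normexp background correction called 2 genes for E13.5 against E10.5 PGC, 4 for E17.5 against E13.5 males, 2 and 5 for males against females at E13.5 and E17.5, 1 for spermatogonia against E17.5 males, 1 for the ES lines and 21 for GS cells against spermatogonia. Quantile normalization called 8 for the difference of the stage changes, 4 for spermatogonia against E17.5 males and 1 for the sexes of EG cells. The deposited values called 3 for E13.5 against E10.5, 5 for the sexes at E17.5, 0 for oogonia, 1 for spermatogonia against E17.5 males, 9 for spermatogonia against oogonia, 1 for the sexes of EG cells and 0 for ES lines. The percentile over all probes called 1 for the ES lines, and the mean of a gene's probes 3 for E17.5 against E13.5 females. Testing only features measured on every array, which leaves fewer genes, called 5 for E13.5 against E10.5, 6 for E17.5 against E13.5 males, 2 for the difference of the stage changes, 2 and 6 for the sexes at E13.5 and E17.5, 9 for spermatogonia against oogonia and 10 for EG cells against PGC. Testing every feature called 6 for E13.5 against E10.5, 1 for the ES lines and 17 for GS cells against spermatogonia. A random slide block called 0 for oogonia and for spermatogonia against E17.5 PGC, 7 for spermatogonia against oogonia, 6 for EG cells against PGC, 0 against ES cells, 1 for the sexes of EG cells and 1 for GS cells against spermatogonia. Fits on the compared groups alone, with fewer residual degrees of freedom, called 0 for E13.5 against E10.5, for E17.5 against E13.5 males, for the sexes at E13.5, for oogonia, for spermatogonia against E17.5 males and for ES lines, and 5 each for EG against ES and GS against spermatogonia. Leaving out 1 array gave 5 to 7 for E13.5 against E10.5, 2 to 5 and 6 to 11 for the sexes at E13.5 and E17.5, 1 to 2 for oogonia and for spermatogonia against E17.5 PGC, and 0 in each case for ES lines. The counts that moved by over 1.5 times were 6 without E10.5 male, E13.5 female or E13.5 male replicate 1 and 5 without E13.5 female replicate 2 (E13.5 against E10.5), 2 without either female array or male replicate 2 (sexes at E13.5), 6 without male replicate 2 (sexes at E17.5), 1 without either oogonia array, and 1 without either spermatogonia array.

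Signs turned for Gatm between E13.5 and E10.5 (-0.15), Nnat (-0.88) and Ppp1r9a (-0.13) between EG cells and PGC, and Snrpn between GS cells and spermatogonia (-1.01) and between spermatogonia and oogonia (0.40), all under normexp. They also turned for Ppp1r9a under the mean of probes (-0.01), and for H13 (-0.20) and Tssc4 (-0.21) between spermatogonia and oogonia in the deposited values. Scalings moved the median difference of all features, by -1.53 to 0.50 under normexp, -1.21 to 0.81 in the deposited values, -0.48 to 0.52 under quantile normalization and -0.63 to 0.54 where all probes set the percentile. Splits moved by over 10 points also for the difference of the stage changes (7 higher and 1 lower under quantile normalization, 4 and 1 where all probes set the percentile), for the sexes at E13.5 (1 and 2 with that percentile) and for the ES lines (1 and 0 under it and under normexp). Of 115 calls of members, 31 were lost under no alternative.

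Replicate numbers are shared across groups, but for PGC they mark the scan day. The deviations of the 2 arrays correlated between PGC groups (r of 0.31 to 0.80 in all 15 pairs of groups), and over 0.1 in 15 of the 76 other pairs. The replicate block gave 10 calls for E13.5 against E10.5, 5 for the difference of the stage changes, 17 for EG cells against PGC and 11 for GS cells against spermatogonia, and moved no count by over 1.5 times. A scan day block gave 12, 8 and 13 calls for the 3 stage comparisons (both sexes, females, males). Only 2 arrays a group and signals near background on the 16 arrays with under 50% of probes measured limit the dim members.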
